A study of Mus musculus with 12 samples.

Results

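Wfdc1, Wfdc2, Wfdc10 and Wfdc13 encode small secreted proteins of the WAP four-disulfide core family. These 4 genes, of 32285 features in the count tables, were chosen from earlier results of the same data because Wfdc1 was lower and the other 3 were higher when the -KTS variant of WT1 was missing. Gonads of mouse embryos at E12 (23 ± 3 tail somites), on a mixed B6CBAF1/JRj background, were profiled by droplet single-cell RNA sequencing, which captures the 3' ends of transcripts and counts molecules by unique molecular identifiers (UMIs). The embryos were wild type (WT), homozygous for an allele that makes no -KTS variant (-KTS-/-KTS-, called -KTS KO) or homozygous for an allele that makes no +KTS variant (+KTS-/+KTS-, called +KTS KO). XX and XY gonads of each genotype were sequenced in 2 libraries, which gave 12 libraries in 6 groups. Both alleles are carried by every cell of the embryo, and gonads of several embryos were pooled for some -KTS KO libraries. WT1 is a zinc finger protein, and its variants differ by the presence of the amino acids KTS between the last zinc fingers.

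The WAP domain, named after whey acidic protein of milk, is a small fold held together by disulfide bonds between its cysteines, and many of its carriers inhibit proteases outside the cell. Wfdc1 encodes ps20, a secreted growth-regulatory protein of stroma. Wfdc2 encodes HE4, first found in epididymis and used as a serum marker of ovarian cancer. Wfdc10 and Wfdc13 belong to a cluster of WAP genes on chromosome 2, many of which are active in the male reproductive tract. In the gonad, pre-supporting cells give rise to Sertoli cells in XY and to pre-granulosa cells in XX embryos, and interstitial progenitors lie around them.

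In the GENCODE M21 annotation of GRCm38, Wfdc1 lies alone on chromosome 8 (chr8:119666365-119688222, plus strand, up to 7 exons). The other 3 lie on the plus strand of chromosome 2 at chr2:164562413-164568510 (Wfdc2, up to 5 exons), chr2:164656046-164657368 (Wfdc10, 2 exons) and chr2:164685107-164687706 (Wfdc13, 2 exons). Wt1 itself is on the same chromosome, 59.53 Mb from the start of Wfdc10. Wfdc9 runs on the minus strand and overlaps Wfdc10 by 538 bp in this annotation, and Wfdc8 overlaps Wfdc6b by 105 bp. The RefSeq start of Wfdc9, used for its sequence, lies inside this model at position 164654966, before the start of Wfdc10 at 164656046, and leaves no overlap. The strand setting of the counting is not given in the sources used here, so counts of these overlapping genes are uncertain to that extent.

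The start regions of 4 genes of the chromosome 2 cluster are shown, 2 of the chosen genes and 2 of their neighbours whose transcripts were also higher in the -KTS KO. They are RefSeq promoter sequences (GRCm38.p6) that run 5' to 3' on the strand of the gene, from 250 bases before the start to 50 after it, so that base 251 is the start. Capitals mark the letters GTGGGNG, a WT1-type core, on either strand.
Wfdc10, chr2:164655796-164656095, plus strand: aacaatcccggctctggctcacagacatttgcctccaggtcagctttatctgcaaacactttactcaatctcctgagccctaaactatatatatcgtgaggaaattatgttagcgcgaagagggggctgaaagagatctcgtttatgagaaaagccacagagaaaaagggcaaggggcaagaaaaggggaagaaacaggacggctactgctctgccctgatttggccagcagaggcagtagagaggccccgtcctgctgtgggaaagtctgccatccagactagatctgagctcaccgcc
Wfdc9, chr2:164654917-164655216, minus strand: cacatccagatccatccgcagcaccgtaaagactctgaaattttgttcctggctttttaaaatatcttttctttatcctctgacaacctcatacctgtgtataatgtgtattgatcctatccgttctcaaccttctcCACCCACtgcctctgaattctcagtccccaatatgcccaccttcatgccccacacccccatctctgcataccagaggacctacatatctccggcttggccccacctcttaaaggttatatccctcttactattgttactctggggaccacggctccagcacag
Wfdc2, chr2:164562465-164562764, plus strand: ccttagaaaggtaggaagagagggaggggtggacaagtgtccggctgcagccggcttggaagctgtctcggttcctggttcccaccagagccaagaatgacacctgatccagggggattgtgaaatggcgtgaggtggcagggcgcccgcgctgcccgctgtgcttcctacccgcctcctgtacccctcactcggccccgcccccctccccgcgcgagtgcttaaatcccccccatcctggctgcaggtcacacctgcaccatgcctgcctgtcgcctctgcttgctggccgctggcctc
Wfdc6b, chr2:164613450-164613749, plus strand: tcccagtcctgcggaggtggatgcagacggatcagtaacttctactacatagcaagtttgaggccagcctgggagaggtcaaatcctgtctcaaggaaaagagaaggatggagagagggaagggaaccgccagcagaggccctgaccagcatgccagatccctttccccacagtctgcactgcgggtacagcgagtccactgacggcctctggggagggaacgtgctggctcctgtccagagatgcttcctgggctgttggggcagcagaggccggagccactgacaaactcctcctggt
GTGGGNG was present in 1 of these 4 windows, that of Wfdc9, where the reverse strand holds it with its first base at -113. Of 32817 RefSeq promoters of this length, 31.6% hold it on either strand. GCGGGGG, held by 10.8% of all promoters, AAGGTCA (the NR5A1 half-site, 4.72%) and TATAAA (13.6%) were in none of the 4. Wfdc8 and Eppin, which were also higher in the -KTS KO, are not printed, and a RefSeq window of Wfdc8 holds TATAAA with its first base at -246. The Wfdc2 window was rich in GC (65.3%, 16 CpG), whereas that of Wfdc10 had 50.7% GC and 8 CpG and that of Wfdc9 47.3% and 5. A match to these letters is a description of the sequence and says nothing about binding.

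A minimum of 1000 genes and a maximum of 10% mitochondrial UMIs left 83513 of 103730 barcodes, and 78674 remained after removal of likely doublets. Among the barcode sequences of the remaining cells, 776 (0.996%) were found in more than 1 library. Cells in which no list of germ, endothelial, erythroid, immune, perivascular or mesonephric markers had 3 or more detected genes were called gonadal somatic (67454 cells, median 12837 UMIs). Their UMIs were summed for each library (57759540 to 98777932) and are given as CPM, UMIs per 1000000 on the TMM scale shared by the libraries. Tests used edgeR's quasi-likelihood fit of all 12 libraries on 17723 genes with Benjamini-Hochberg adjustment. The 6 groups shared 1 estimate of the spread, so leaving out any library can change a call. Foxl2, the transcription factor of ovarian supporting cells, was at 19.4 and 23.5 CPM in the XX WT libraries, 32.9 and 8.96 CPM in XY +KTS KO and 15.2 and 6.64 CPM in XX +KTS KO, and at 1.58 CPM or less in each library of XY WT and of both -KTS KO groups. Wt1 averaged 206 to 299 CPM in the 6 groups, and these counts do not separate its splice variants. In summed cells, a smaller share of cells of a type and less RNA per cell cannot be told apart.

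Wfdc1 was read in XX WT and in both sexes of the +KTS KO, and it was near 0 in the -KTS KO. Its level was 33.7 and 26.0 CPM in the XX WT libraries. The XY WT libraries held 3.39 and 2.20 CPM. The +KTS KO libraries were at 15.3 and 10.9 CPM for XX and at 40.3 and 17.5 CPM for XY gonads. The -KTS KO libraries held 5 and 0 UMIs in XX and 5 and 2 UMIs in XY, or at most 0.0706 CPM. By group mean, the order was XX WT (29.8 ± 5.42, SD, n = 2), XY +KTS KO (28.9 ± 16.1), XX +KTS KO (13.1 ± 3.12), XY WT (2.80 ± 0.840), and the -KTS KO in XY (0.0474 ± 0.0328) and XX (0.0312 ± 0.0442). The libraries of XX WT and XY +KTS KO overlapped, as did those of the -KTS KO sexes, and the other neighbours in this order did not.

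The other 3 genes had the opposite pattern and were highest in the -KTS KO. The XX WT libraries held 23.0 and 24.1 CPM of Wfdc10, and the XY WT libraries 5.26 and 17.4 CPM. It reached 294.8 and 298.7 CPM in XX and 239.9 and 309.2 CPM in XY -KTS KO. In the +KTS KO it was 12.8 and 21.3 CPM in XX and 3.58 and 15.2 CPM in XY, which overlapped the XY WT range. Wfdc13 was at 72.8 and 47.2 CPM in XX and 97.2 and 63.3 CPM in XY -KTS KO. Its values in the WT were 8.27 and 8.64 CPM for XX and 2.53 and 7.09 CPM for XY gonads. For the +KTS KO, Wfdc13 was at 3.00 and 4.06 CPM in XX and 0.540 and 1.71 CPM in XY. Wfdc2 was at 45.2 and 37.6 CPM in XX and 58.2 and 37.0 CPM in XY -KTS KO. In the WT it was at 9.58 and 10.8 CPM for XX and 5.21 and 9.02 CPM for XY gonads. In the +KTS KO it was at 4.65 and 9.24 CPM for XX and 1.74 and 3.64 CPM for XY gonads.

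**Figure D1:**
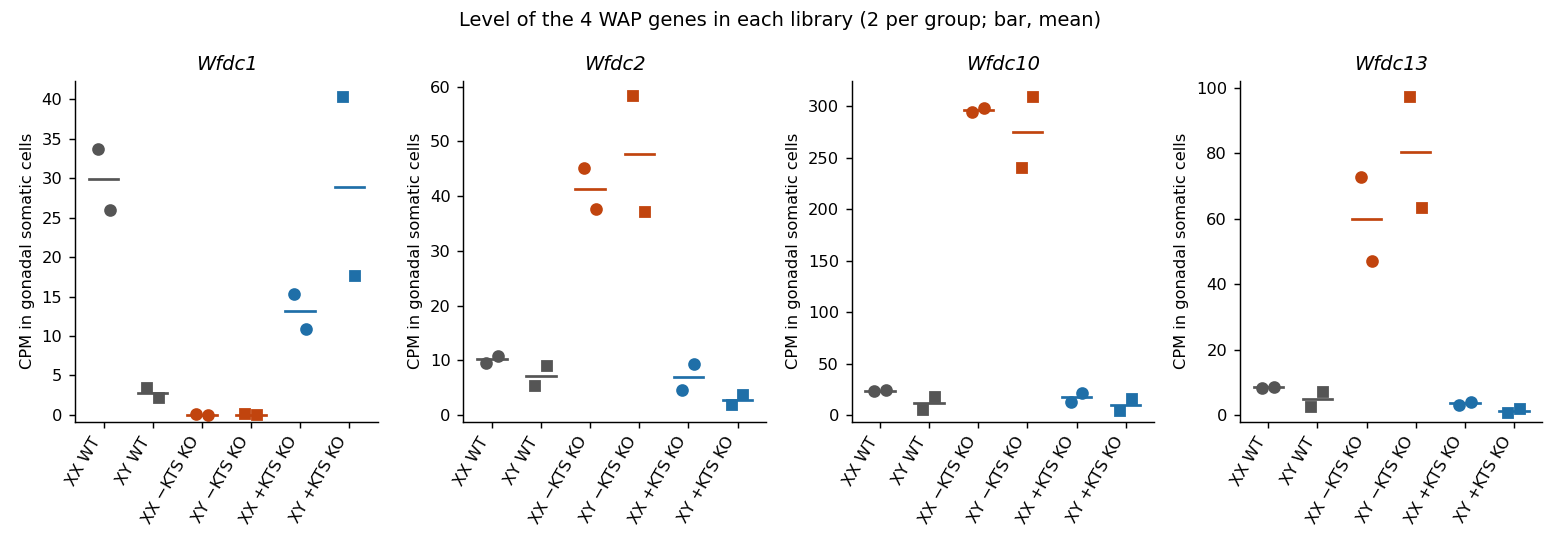
Each panel plots the level of 1 WAP gene in gonadal somatic cells (CPM, linear axis) for each of the 12 libraries, with circles for XX, squares for XY and a bar at the mean of the 2 libraries of a group. Wfdc1 lies between 10.9 and 40.3 CPM in XX WT and the +KTS KO and near 0 in the -KTS KO, whereas the other 3 genes are highest in the -KTS KO (Wfdc10, 239.9 to 309.2 CPM).

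For the comparison of -KTS KO with WT, the contrast chose the genes, so its values are a description without a test. Wfdc1 had 4731 UMIs in XX WT against 5 in XX -KTS KO, a ratio of levels of 837 (95% exact binomial interval 359 to 2580, counting error only). All 5 came from XX -KTS KO replicate 1, and the fitted log2 difference was -8.85 without replicate 2 and -14.2 without replicate 1, which then rests on 0 UMIs. In XY the counts were 387 and 7, a ratio of 59.9 (28.8 to 150), with fitted log2 differences of -6.76 and -5.29 without XY -KTS KO replicate 1 and 2. For Wfdc10 the fitted log2 difference was 3.66 (SE 0.68) in XX and 4.60 (SE 0.71) in XY, or 12.6-fold and 24.2-fold. The XY value was 3.98 without XY WT replicate 1 and 5.71 without XY WT replicate 2. Wfdc13 was higher by 2.83 (SE 0.54) in XX and 4.06 (SE 0.57) in XY on the log2 scale, the latter 4.99 without XY WT replicate 2. Wfdc2 was higher by 2.02 (SE 0.42) and 2.74 (SE 0.43). Over all genes tested, edgeR called 6.75% higher and 9.48% lower in XX and 11.0% higher and 12.3% lower in XY, and the median log2 difference was 0.01 in each. Libraries without overlap were common with 2 per group: 31.9% of genes in XX and 31.8% in XY had both -KTS KO libraries above both WT libraries, and 32.3% and 30.0% had both below. The WT libraries also serve the +KTS KO comparisons, so values of both mutants against WT are not independent.

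Comparisons that did not choose the genes were tested. Wfdc1 rose in XY +KTS KO over XY WT by 3.37 on the log2 scale (SE 0.45, 95% interval 2.26 to 4.47, edgeR adjusted p = 0.0022), or 10.3-fold. Both mutant libraries were above both WT libraries, as for 28.2% of all genes, while 24.0% had both below. Without XY +KTS KO replicate 1, the higher of the pair, the difference was 2.65 (adjusted p = 0.0040). In XX +KTS KO, Wfdc1 was at 0.441 of its XX WT level (log2 difference -1.18, interval -2.19 to -0.18), which did not pass the threshold (adjusted p = 0.150). It passed with DESeq2 (adjusted p = 0.0380), without a filter on low counts (0.0349), with the replicate number as a block (0.0381) and without XY +KTS KO replicate 2 (0.0494), and otherwise the adjusted p reached 0.565. The effects in XX and XY differed by -4.55 (SE 0.61, adjusted p = 0.0054), and by -3.84 without XY +KTS KO replicate 1. Of the 4 genes, Wfdc1 was called in this test of the difference, in which 3.97% of all genes were called.

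Wfdc13 fell in XY +KTS KO, by 2.08 on the log2 scale (SE 0.56, edgeR adjusted p = 0.0393). This call was kept when XY WT replicate 1 or XY +KTS KO replicate 2 was left out and lost without each of the other 10 libraries. Over the 12 such fits the adjusted p ran from 0.0188 to 0.214, and the difference was -1.15 without XY WT replicate 2, -1.49 without XY +KTS KO replicate 1 and -3.15 without XY +KTS KO replicate 2. Wfdc2 was at 0.380 of its XY WT level (log2 difference -1.39, interval -2.44 to -0.35, adjusted p = 0.0596). It passed with DESeq2 (adjusted p = 0.00628), without the filter (0.00973) and without XY +KTS KO replicate 2 (-2.03, adjusted p = 0.0303), and was at -0.63 with all kept cells (adjusted p = 0.225). Wfdc10 differed by -0.27 (interval -1.79 to 1.26, adjusted p = 0.801), and its sign turned without XY WT replicate 2 (0.85) or XY +KTS KO replicate 1 (0.43). Thus 2 of the 4 genes were called in XY, where 12.5% of all genes were. In XX +KTS KO, edgeR called 0 of the 4, beside 5.02% of all genes, and DESeq2 called 1, beside 1535 of 17723 genes. In edgeR, Wfdc1 and Wfdc13 had an unadjusted p under 0.05, as did 18.3% of all genes. The intervals in XX were -1.56 to 0.45 for Wfdc2, -1.98 to 1.04 for Wfdc10 and -2.54 to 0.02 for Wfdc13.

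Between the sexes of the WT, Wfdc1 was higher in XX than in XY by 3.41 on the log2 scale (SE 0.45, edgeR adjusted p = 0.00163), or 10.6-fold. It was past the threshold in all 12 fits with 1 library left out (3.14 to 3.76). The other 3 genes were not called in this comparison, with differences of 0.52 for Wfdc2 (interval -0.49 to 1.53), 1.06 for Wfdc10 (-0.47 to 2.59) and 0.82 for Wfdc13 (-0.45 to 2.08). Of all genes, 14.0% were called. The 2 XY WT libraries were far apart for Wfdc10 (5.26 and 17.4 CPM) and for Wfdc13 (2.53 and 7.09 CPM). Between the sexes of the -KTS KO, edgeR and DESeq2 called 0 of the 4 genes, with 0 at an unadjusted p under 0.05 (4.78% of all genes). The intervals ran from -1.19 to 0.78 for Wfdc2, from -1.38 to 1.60 for Wfdc10 and from -1.64 to 0.80 for Wfdc13. For Wfdc1 the interval was -3.60 to 2.94, from 5 UMIs in XX and 7 in XY, too few to detect a difference within it. In the +KTS KO both tools also called 0, while Wfdc1, Wfdc2 and Wfdc13 had an unadjusted p under 0.05, as did 3.31% of all genes. Their differences were -1.14 for Wfdc1, 1.36 for Wfdc2 and 1.63 for Wfdc13. Wfdc1 was at -0.42 and Wfdc13 at 1.04 without XY +KTS KO replicate 1, and Wfdc2 was at 2.00 and Wfdc13 at 2.71 without XY +KTS KO replicate 2. With all kept cells Wfdc2 was at 0.21. In each of these 2 comparisons edgeR called 6 of the 17723 genes (0.0339%), and DESeq2 called 20 in the -KTS KO and 31 in the +KTS KO.

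**Figure D2:**
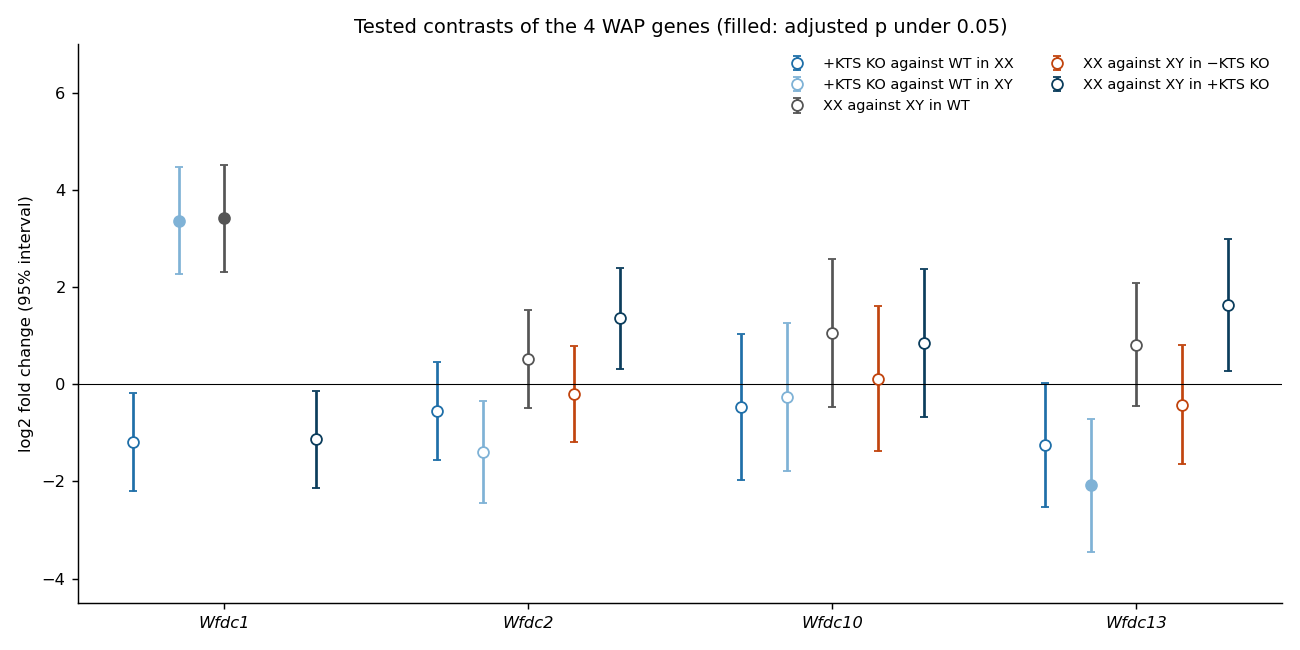
Points show the log2 difference of each gene in the comparisons that did not choose it, with 95% intervals, and filled points passed an adjusted p of 0.05 in edgeR. Wfdc1 is filled for XY +KTS KO against WT (3.37) and XX against XY in WT (3.41), Wfdc13 for XY +KTS KO against WT (-2.08), and the sex difference of Wfdc1 in the -KTS KO is not drawn because it rests on 12 UMIs.

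To determine whether neighbours on chromosome 2 differed with these genes, genes that start within 200 kb of the start of Wfdc10 were examined. Of 31 features in this window, 11 are WAP genes, and 6 of the 8 that were not chosen passed the filter on low counts. Wfdc16 and Wfdc11, at -17.25 and 18.04 kb from the start of Wfdc10, did not, with 1 and 2 UMIs over all 12 libraries. Wfdc8 passed only through the -KTS KO libraries, so that its place among the 6 is not independent of its difference. Of the other 5, edgeR called 3 higher in the -KTS KO in XX and the same 3 in XY (Wfdc6b, Wfdc9 and Eppin), beside 6.75% and 11.0% of all genes. Wfdc6b went from 11 and 36 UMIs in XX WT to 306 and 333 in XX -KTS KO, and from 8 and 12 to 221 and 304 in XY. Its log2 difference was 4.10 in XX (edgeR adjusted p = 0.000551), or 4.89 without XX WT replicate 2, and 4.53 in XY (adjusted p = 0.00027). It was called in every fit with 1 library left out. Wfdc8 had 4 and 9 UMIs in XX WT and 102 and 39 in XX -KTS KO, 3 and 5 in XY WT and 73 and 109 in XY -KTS KO, and 7 to 11 in the +KTS KO libraries. Its fitted differences were 3.61 in XX and 4.29 in XY, and it was also called in both when no filter was applied.

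Eppin, an inhibitor that coats sperm, rose by 1.86 in XX (adjusted p = 0.0270) and 2.91 in XY (0.00307). The XX call was lost without any 1 of the XX WT or XX -KTS KO libraries (adjusted p 0.0757 to 0.144), and the XY value was 2.30 without XY WT replicate 1 and 3.98 without replicate 2. Wfdc9 rose by 2.48 in XX (adjusted p = 0.0365) and 4.13 in XY (0.00398). Its XX call was lost without any 1 of the XX WT, XX -KTS KO, XY -KTS KO or XX +KTS KO libraries (adjusted p 0.0509 to 0.182) and with all kept cells (0.0655). Its XY value was 3.39 without XY WT replicate 1 and 5.67 without replicate 2. Since Wfdc9 overlaps Wfdc10, their counts were set side by side. There were 5.73 and 5.82 Wfdc9 UMIs per 100 of Wfdc10 in XX and XY WT, 2.61 and 4.10 in XX and XY -KTS KO, and 2.72 and 1.59 in XX and XY +KTS KO. Wfdc6a was not called (1.01 in XX, adjusted p = 0.0609, and 0.68 in XY, adjusted p = 0.160). Its RefSeq start window shares a run of 70 identical bases with that of Wfdc6b, and whether reads of their 3' ends are shared was not tested. Wfdc3, at the far end of the cluster, was not called either (0.52 in XX, adjusted p = 0.241, and -0.69 in XY, adjusted p = 0.0954).

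Among genes of this window outside the family, the number called was near the background. Of 16 that passed the filter, edgeR called 0 in XX, where 6.75% of all genes were called higher, and 2 higher in XY, where 11.0% were. These were Spint3 (a Kunitz-type inhibitor gene, 4.58, adjusted p = 0.00383) and Snx21 (a sorting nexin, 0.89, adjusted p = 0.000537). Spint3 had 8 UMIs in XY WT, and its value was 3.56 without XY WT replicate 1 and 9.86 without replicate 2. In XX, Spint3 differed by 1.89 (adjusted p = 0.0857). The median log2 difference of the 16 was 0.18 in XX and 0.21 in XY.

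**Figure D3:**
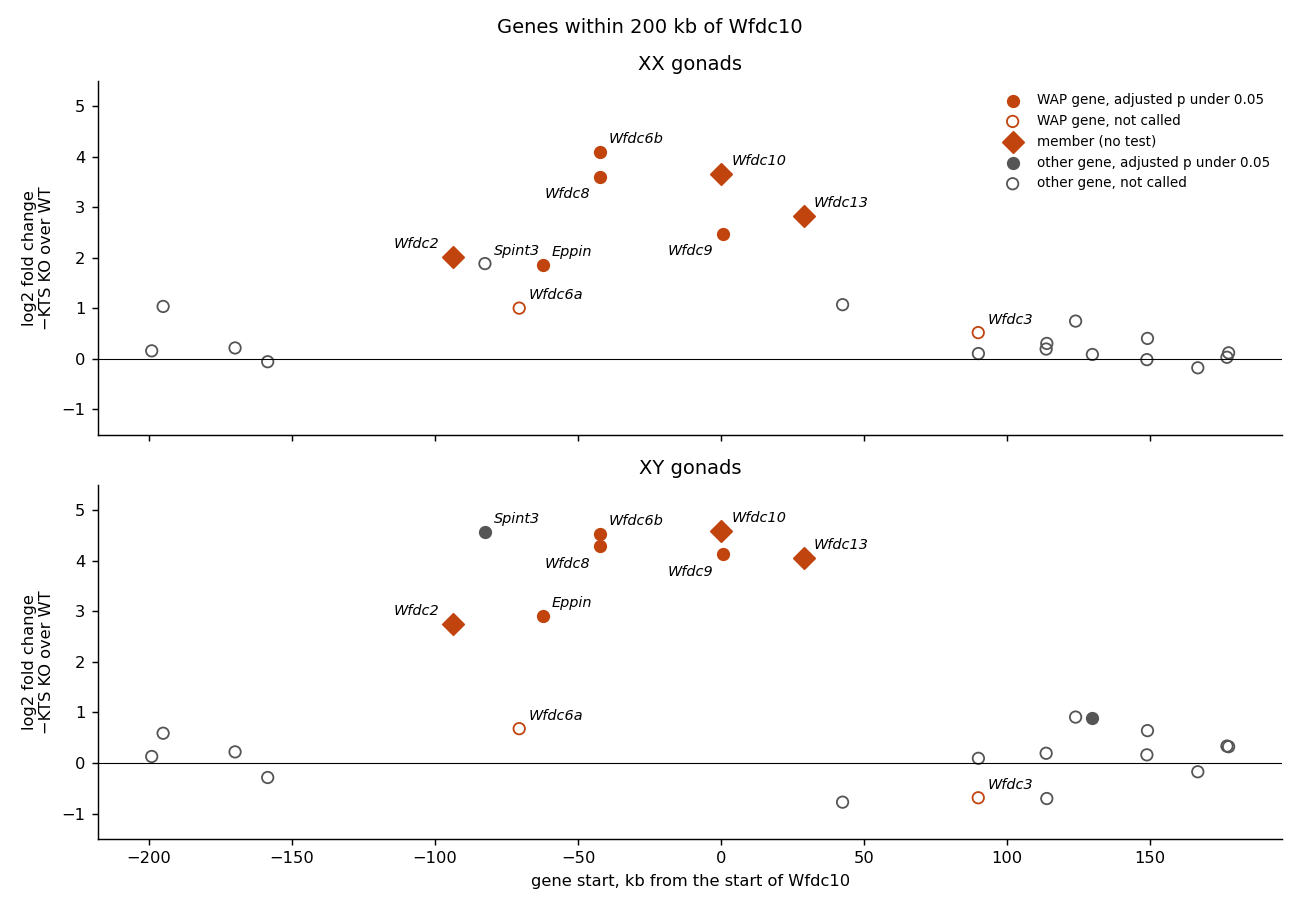
The log2 difference of -KTS KO from WT is plotted against the distance of each gene's start from the start of Wfdc10 (kb) for XX (upper) and XY gonads (lower), with WAP genes in orange and other genes in grey. Diamonds are genes chosen by this contrast and are not tested, and filled circles passed an adjusted p of 0.05. WAP genes that passed the filter lie from 0.68 to 4.60 between -93.6 and 29.1 kb, and Wfdc3, at 89.9 kb, lies at 0.52 in XX and -0.69 in XY. Genes outside the family other than Spint3 lie between -0.78 and 1.07. Wfdc16 and Wfdc11 did not pass the filter and are not drawn.

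Of the 20 other genes on a list of WAP genes, 19 were in the count tables and 9 passed the filter. Besides those of the window, Wfdc18 was lower in XY -KTS KO than in XY WT. It passed the filter only through the XY WT libraries. That it was tested is thus not independent of its differences from XY WT, which are a description. It was read in XY WT (409 and 323 UMIs) and XY +KTS KO (23 and 3 UMIs), and all 8 other libraries had 0. XY WT was at least 264-fold higher than XY -KTS KO and at least 272-fold higher than XX WT, with a floor of 3 UMIs over the group. Against XY +KTS KO the ratio was 34.5 (exact binomial interval 23.4 to 53.2), an interval that covers counting error only. The fitted log2 difference from XY WT to XY +KTS KO was -7.34 without XY +KTS KO replicate 1 and -4.23 without replicate 2. DESeq2 did not call Wfdc18 in these comparisons (adjusted p 0.100, 0.128 and 0.518). Wfdc3 fell in XY +KTS KO by 1.12 (SE 0.27, adjusted p = 0.0273), a call lost without XY WT replicate 1 (-0.76, adjusted p = 0.202) or XY +KTS KO replicate 1 (-1.05, adjusted p = 0.0878), and with all kept cells (-0.84, adjusted p = 0.117).

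Proteases and inhibitors outside the family were called in both directions. In the -KTS KO, 18 genes of a protease inhibitor list, not all of them secreted, were tested. In XX, 1 was called higher and 2 lower, beside 6.75% and 9.48% of all genes, so that this count was near the background. In XY, 3 were called higher and 6 lower, beside 11.0% and 12.3% of all genes. The list's median log2 difference was -0.25 in XX and -0.33 in XY. In XY the calls of Serpine2 (protease nexin 1, -3.52, adjusted p = 4.2e-05), Serping1 (C1 inhibitor, 0.86, adjusted p = 0.00417) and Reck (a membrane-anchored inhibitor of metalloproteinases, 0.75, adjusted p = 0.00576) held in every fit with 1 library left out. None of the 3 XX calls did. Of 19 serine proteases tested, 4 were called higher and 3 lower in XX, and 4 higher and 7 lower in XY, beside the same shares of all genes. These counts include C1s1 (higher in both sexes) and Tmprss2 (lower in XY), which passed the filter only through the group where they were high. Their place in the counts is thus not independent of their difference. The serine proteases called in XX in every fit with 1 library left out were Pcsk5 (a proprotein convertase, 1.70, adjusted p = 0.00176) and Htra1 (-1.76, adjusted p = 0.00117). In XY, St14 (matriptase, -5.55, adjusted p = 0.00169) and C1s1 (complement C1s, fitted difference 5.14) differed most in each direction in the fit reported. St14 was at 0.0706 and 0 CPM in XY -KTS KO, and C1s1 at 0.0281 and 0.0302 CPM in XY WT. The sizes of both differences thus rest on levels near 0. C1s1 passed the filter only through the -KTS KO libraries, so no test is given for it. With all kept cells St14 was not called (-0.75, adjusted p = 0.216) and C1s1 was at 4.31, and St14 was at -10.0 without XY -KTS KO replicate 1 and at -4.505 without replicate 2. Prss12 (neurotrypsin, -4.09, adjusted p = 0.0039), Prss8 (prostasin, 1.54, adjusted p = 0.00218) and Klk8 (neuropsin, 1.15, adjusted p = 0.00342) were called under every setting tried. Tmprss2 was at 0.169 and 0.241 CPM in XY WT, through which alone it passed the filter, and at 0.0121 CPM or less in XY -KTS KO. Its fitted log2 difference of -4.68 lay between those of St14 and Prss12, and it was -7.03 to -3.92 with each library left out. Tmprss2 was not called with all kept cells (adjusted p = 0.0854).

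Over the 12 libraries, the genes with the levels most like those of Wfdc1 were compared among 6498 genes that reached 20 CPM in a group. Pearson's r of log2 CPM was 0.979 for Tex15, 0.975 for Tpst2, 0.964 for Tnfrsf19 and Mxd4, and 0.963 for Foxl2. Wfdc2 and Wfdc13 were each other's nearest gene (r = 0.993), and Slc9a3r1, which encodes a scaffold of membrane transporters, was next for both (0.984 and 0.981). For Wfdc10 the nearest were Tmem178 (0.969), Gm14964 (0.968), Wfdc13 (0.966), Cdh10 and AU020206 (0.965 each). Wfdc1 had r of -0.86 with Wfdc2, -0.84 with Wfdc10 and -0.85 with Wfdc13. These values describe 12 points in 6 groups, 8 of them the -KTS KO and WT libraries whose contrast chose the genes, so the signs of r among the 4 genes follow in part from that choice.

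Cells were next assigned to a list when at least 3 of its markers were detected and the share of the list detected was the highest. No Wfdc gene was on a list. A cell set of this kind is a range of marker detection and not a cell type, and 19.0% of gonadal somatic cells had exactly 3 of the 5 pre-supporting markers and 15.2% had 2. Levels here are UMIs per 1000000 UMIs of the cells in question, and n is 4 libraries per genotype. In the -KTS KO, cells assigned to the pre-supporting list had a median of 3 pre-supporting, 2 pre-granulosa and 1 interstitial progenitor markers, and those assigned to the interstitial list a median of 4 interstitial and 0 pre-supporting markers. The marker lists themselves differed between the groups. The summed level of the 5 pre-supporting markers in gonadal somatic cells was 709 to 1411 CPM in the WT, 353 to 522 CPM in the -KTS KO and 1029 to 1382 CPM in the +KTS KO. That of the interstitial progenitor markers was 355 to 799, 553 to 851 and 435 to 580 CPM, and that of the coelomic epithelium markers was 86.0 to 134.7, 145.3 to 186.3 and 126.3 to 143.8 CPM. Sertoli markers summed to 1592 and 1400 CPM in XY WT, 39.7 and 42.8 CPM in XY -KTS KO and 249 and 84.5 CPM in XY +KTS KO, and to 20.8 to 115 CPM in the XX libraries. Pre-granulosa markers summed to 1013 and 1043 CPM in XX WT, 154 and 270 CPM in XX -KTS KO and 241 and 199 CPM in XX +KTS KO, and to 117 to 483 CPM in the XY libraries. The part of these 5 lists in the differences of the Wfdc genes, and of the proteases and inhibitors, was not tested. The paper links Sprr2d, Wnt6 and Nr0b1 to bipotent pre-supporting cells. It reports a rise of these genes in such cells of the XX -KTS KO and a fall in pre-granulosa cells of the XX +KTS KO. Runx1, its pre-supporting marker, averaged 103 CPM in XX WT and 33.5 CPM in XX -KTS KO, and 43.9 and 36.9 CPM in XY. These Runx1 levels are sums over all gonadal somatic cells, whereas the paper compared cells of given types, so their directions cannot be set against each other. Whether single markers of the list moved in opposite directions was not tested. In XX -KTS KO replicate 2, 1761 of 4558 cells fell under no list, more than in any other library.

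Wfdc10 was higher in cells with pre-supporting markers than in those with interstitial progenitor markers in each genotype. Its level in cells with pre-supporting markers was 32.5 ± 8.21 CPM in the WT (SD over 4 libraries, 7407 cells), 835.3 ± 133.6 CPM in the -KTS KO (2622 cells, 680.3 to 964.0) and 19.0 ± 11.2 CPM in the +KTS KO (13101 cells). The 183 -KTS KO cells with pre-granulosa markers averaged 878.5 ± 229.1 CPM, which overlapped the level with pre-supporting markers. In cells with interstitial progenitor markers, Wfdc10 was 3.50 ± 1.75 CPM in the WT and 143.4 ± 35.2 CPM in the -KTS KO. In cells with coelomic epithelium markers it was 0.691 and 69.4 ± 27.0 CPM. Within each -KTS KO library, the level with pre-supporting markers was 6.05 ± 1.53 times that with interstitial markers.

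Wfdc13 and Wfdc2 were likewise higher with pre-supporting than with interstitial markers. Wfdc13 in cells with pre-supporting markers was 12.5 ± 2.71 CPM in the WT, 259.4 ± 79.8 CPM in the -KTS KO and 3.53 ± 2.47 CPM in the +KTS KO. Its level with interstitial markers was 0.610 CPM in the WT and 21.1 ± 7.26 CPM in the -KTS KO. Within -KTS KO libraries, the level with pre-supporting markers was 13.6 ± 6.49 times that with interstitial markers. Wfdc2 in cells with pre-supporting markers was 16.6 ± 1.72, 152.7 ± 32.7 and 6.84 ± 5.18 CPM in the WT, -KTS KO and +KTS KO. With interstitial markers it was 2.15 CPM in the WT and 16.7 ± 3.12 CPM in the -KTS KO.

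Wfdc2 was also read in germ cells. In cells with germ markers it was at 50.7 ± 14.8 CPM in the WT, 42.7 ± 12.5 CPM in the -KTS KO and 51.6 ± 20.3 CPM in the +KTS KO, and these ranges overlapped. When all kept cells were summed, germ cells included, the difference of Wfdc2 between -KTS KO and WT was 1.10 in XX and 1.41 in XY, against 2.02 and 2.74 without them. Remaining germ markers in gonadal somatic cells summed to 6.72 to 41.0 CPM in the -KTS KO, 16.9 to 26.3 CPM in the WT and 17.7 to 21.8 CPM in the +KTS KO, highest in XX -KTS KO replicate 2. Mesonephric duct and tubule markers summed to 1.27 to 2.90 CPM in the WT, 2.58 to 4.33 CPM in the -KTS KO and 1.10 to 2.83 CPM in the +KTS KO. The part of either list in the level of Wfdc2 was not tested.

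Wfdc1 was read in cells with pre-granulosa and pre-supporting markers of the WT and +KTS KO, and in the few +KTS KO cells with Sertoli markers. In cells with pre-granulosa markers it was at 72.0 and 57.3 CPM in the 729 and 738 such cells of the XX WT libraries and at 81.8 and 18.1 CPM in 559 and 54 cells of XY +KTS KO. In cells with pre-supporting markers the WT held 46.3 and 38.0 CPM in XX and 8.31 and 6.36 CPM in XY gonads. The +KTS KO held 21.7 and 17.4 CPM in XX and 72.4 and 26.0 CPM in XY cells of this set. The 2622 -KTS KO cells of this set held 4 UMIs of Wfdc1, beside 41964 of Wfdc10. In Sertoli-marker cells of XY WT, Wfdc1 was at 0.313 and 0.568 CPM (1676 and 1072 cells). In XY +KTS KO it was at 43.4 and 78.9 CPM in 70 and 14 such cells, from 44 and 14 UMIs, and XX +KTS KO held 10 UMIs in 25 cells of replicate 1 and 0 in 3 of replicate 2. Cells assigned to the pre-supporting list had a median of 4 of its markers in the WT and +KTS KO and 3 in the -KTS KO. The part of this difference in the level of Wfdc1 was not tested.

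**Figure D4:**
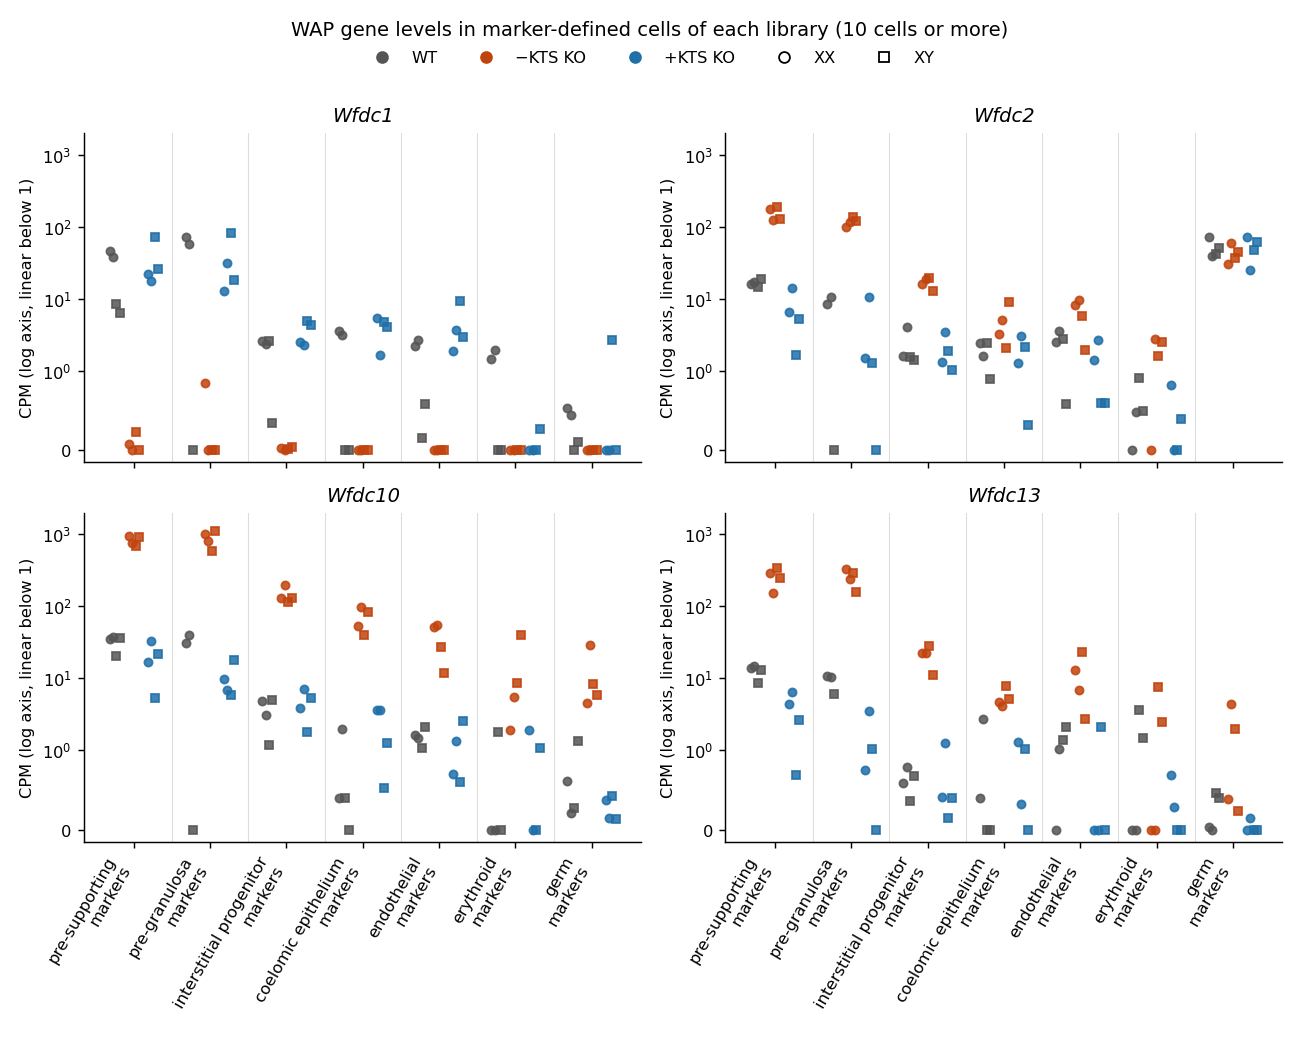
The level of each gene in marker-defined cells of each library is plotted as CPM on a log axis that is linear below 1, for sets of at least 10 cells in a library, with circles for XX, squares for XY and colours for genotype. In the -KTS KO, Wfdc10 spans 680.3 to 964.0 CPM with pre-supporting markers and is lower with interstitial, coelomic, endothelial and germ markers, while Wfdc2 is alike between genotypes in cells with germ markers.

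Wfdc10 also appeared in -KTS KO cells with markers of other types. In cells with endothelial markers it was 36.8 ± 20.8 CPM in the -KTS KO (512 cells) and 1.58 CPM in the WT (1160 cells), and the -KTS KO value was 13.0% of the level in gonadal somatic cells. In cells with germ markers it was 11.9 ± 11.5 and 0.618 CPM. The 60 -KTS KO cells with perivascular markers were at 62.1 ± 24.2 CPM (21.9% of the somatic level) and the 95 with immune markers at 53.0 ± 76.9 CPM (18.7%), against 0 UMIs in 42 and 58 such cells of the WT. The ratio of Wfdc13 to Wfdc10 UMIs was 0.248 in all gonadal somatic cells of the -KTS KO. It was 0.319 with endothelial and 0.317 with pre-supporting markers, but 0.148 with interstitial, 0.150 with germ, 0.119 with perivascular, 0.1125 with immune and 0.0848 with coelomic markers. The share of free RNA in these counts was not tested.

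To compare shares of cells across depths, each cell was thinned to 5000 UMIs, which left out 1559 cells from XX -KTS KO, 1892 from XY +KTS KO and 476 to 679 from each other group. Wfdc10 was then detected in 33.5% ± 6.07 (SD, n = 2) of the gonadal somatic cells of the -KTS KO in XX and 32.2% ± 1.72 in XY gonads. In the WT the shares were 6.75% ± 0.243 in XX and 3.16% ± 2.19 in XY, and in the +KTS KO 4.82% and 2.41%. Without thinning they were 41.6% and 41.3% in XX and XY -KTS KO, 10.2% and 5.30% in the WT and 8.58% and 4.36% in the +KTS KO. Among endothelial-marker cells, the background class, the thinned shares were 10.1% and 5.34% in XX and XY -KTS KO and 0.620% and 0.533% in the WT. The median depth of those cells was 19552 and 17734 UMIs in XX and XY -KTS KO, and that of gonadal somatic cells 14253 and 14118. Wfdc1 was detected in 10.3% ± 1.20 of WT cells from XX and 1.18% from XY gonads, and in the +KTS KO in 5.36% from XX and 11.1% ± 6.04 from XY gonads. The XX -KTS KO had 0 of 7373 cells with a UMI, which allows up to 0.0407% of cells with a UMI at this depth, and the XY -KTS KO had 1 of 9549. Without thinning, 5 of 8932 cells had a UMI in XX -KTS KO (0.0572%, all 5 in replicate 1) and 7 of 10025 in XY -KTS KO, so the limit does not bound the share of cells expressing the gene. In the same counts the share was 18.5% in XX WT and 18.8% in XY +KTS KO, and the thinned shares of endothelial-marker cells in these groups were 0.906% and 2.81%. Wfdc2 and Wfdc13 were detected in 9.04% and 9.14% of XX -KTS KO cells against 3.19% and 2.31% of XX WT cells. In endothelial-marker cells the thinned shares of Wfdc2 and Wfdc13 were 4.91% and 3.32% in XX -KTS KO (10 and 7 of 205 cells), and 1.24% and 0.167% in XX WT.

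The shares grew with the number of pre-supporting markers in a cell. For Wfdc10 in XX -KTS KO they were 19.3% of cells with 0 of these markers, 45.5% with 1, 67.6% with 2 and 73.8% with 3 or more. In XY -KTS KO they were 16.4%, 41.1%, 67.6% and 70.6%, and in XX WT 0.744%, 3.81%, 8.68% and 10.3%. With the number of interstitial progenitor markers the share in XX -KTS KO declined, from 57.4% with 0 to 41.3%, 27.4% and 21.7%. Wfdc1 had the same gradient on pre-supporting markers in the groups that expressed it, from 0.618% to 16.9% in XX WT and from 1.34% to 19.0% in XY +KTS KO. Markers and Wfdc genes were both read after thinning, which matched the total UMI count of the cells and not the number of genes detected. Pre-supporting genes may themselves change with the loss of -KTS, and the part of such changes in these gradients was not tested.

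**Figure D5:**
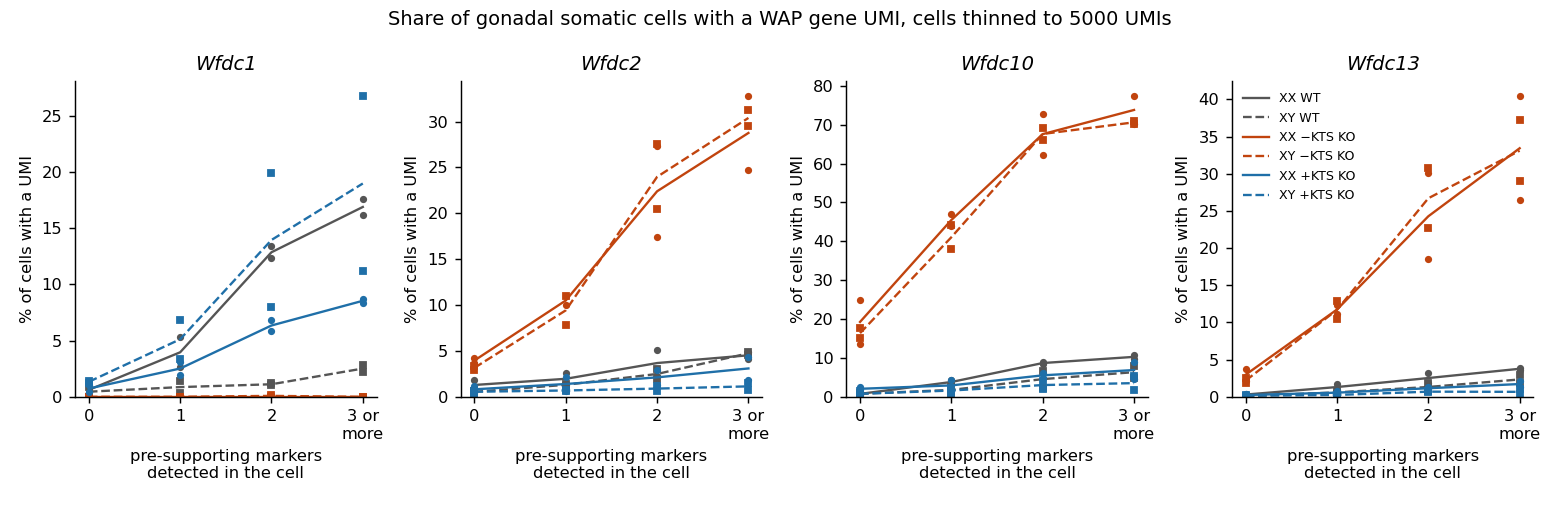
The share of gonadal somatic cells with a UMI of each gene, after thinning to 5000 UMIs, is plotted against the number of pre-supporting markers detected, with points for libraries and lines for the mean of each group. Wfdc10 climbs from 19.3% to 73.8% in XX -KTS KO, and Wfdc1 from 0.618% to 16.9% in XX WT, while Wfdc1 stays at or near 0 in the -KTS KO.

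Most -KTS KO cells with Wfdc13 or Wfdc2 also had Wfdc10. Among thinned cells of the 4 -KTS KO libraries, 76.7% to 86.2% of those with Wfdc13 also had Wfdc10, and 73.5% to 74.3% of those with Wfdc2. In cells without Wfdc10, Wfdc13 was detected in 1.71% to 3.28% and Wfdc2 in 3.25% to 3.97%. Of all thinned cells of these libraries, 29.25% to 37.8% had Wfdc10. Conversely, 17.8% to 29.2% of cells with Wfdc10 had Wfdc13. The shares of all 3 genes may vary with the markers of a cell, and the part of this in their joint detection was not tested. Of cells with Wfdc13, 24.7% to 34.8% had Wfdc2, against 6.60% to 7.35% of cells without Wfdc13. Wfdc10 counts were uneven among cells. At full depth, 11.5% to 17.2% of -KTS KO cells held 10 or more UMIs, the highest count in a cell was 74 to 152, and the top 10% of cells held 64.9% to 69.3% of all Wfdc10 UMIs. In WT libraries 0.0292% to 0.766% of cells reached 10 UMIs. Wfdc1 and Wfdc10 were not exclusive in XX WT, where 9.33% and 12.4% of cells with Wfdc1 also had Wfdc10, against 6.24% and 6.36% of cells without Wfdc1.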

How the data were processed

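Per the labels, fetal gonads were dissociated with trypsin and sequenced with the 10x Genomics 3' protocol. The authors deposited UMI counts per gene and barcode, unnormalized, made with Cell Ranger 6.0 on mm10 per the submitters' processing notes. The genes and lists were chosen with earlier results of these data known, and the rule that assigns cells to marker lists was set after the files were seen. Barcodes under 1000 genes or over 10% mitochondrial UMIs were left out, and the top 0.8% of Scrublet scores (scanpy 1.11.5) per 1000 cells of a library were removed, since Scrublet's own threshold called at most 1 cell in 4 libraries. Counts were summed per library and fitted with edgeR 4.0.16 (TMM, filterByExpr, quasi-likelihood, 6 groups, threshold 0.05) in R 4.3.3, and the fit was tested on simulated data. SEs are the log2 difference divided by the square root of F. The 95% intervals of fitted differences use a t quantile on 6 degrees of freedom, fewer than the tests of these genes used. An interval can thus include 0 where the unadjusted p is under 0.05, as for Wfdc13 in XX +KTS KO. DESeq2 1.42.0 was an alternative. The labels give the libraries of a group a replicate number without saying which embryos they came from. The p-values rest on the spread between libraries of a group, estimated over all 6 groups, and this spread may be partly technical. Library totals ran from 108111924 to 147968666 UMIs. Named genes were the 4 genes, other WAP genes past the filter, genes within 200 kb of Wfdc10, the 5 genes nearest to each by r, and, of the protease and inhibitor lists, at most the 3 largest called genes in a direction, given for the -KTS KO where the call held with each library left out in turn and otherwise only where a sign changed with the processing. Tables were made in Python 3.11.15 with pandas 2.3.3. Intervals and upper limits from counts cover counting error only.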

Additional observations from a re-analysis of the deposited data

Results flagged for a closer look

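The effect of the +KTS KO on Wfdc1 differed between XX and XY gonads by -4.55 on the log2 scale (SE 0.61, edgeR adjusted p = 0.0054), and in all 12 fits with 1 library left out the difference stayed past the threshold (-5.02 to -3.84). Wfdc3 differed in the other direction, by 2.08 (SE 0.39, adjusted p = 0.0210), from 0.771 and 0.667 CPM in the WT to 1.26 and 1.52 CPM in the +KTS KO for XX gonads, and from 2.48 and 1.57 to 0.884 and 0.973 CPM for XY gonads. The call for Wfdc3 was lost without XX WT replicate 1 (adjusted p = 0.0684) or 2 (0.0889), XY WT replicate 1 (1.71, adjusted p = 0.0767) or XX +KTS KO replicate 2 (0.0849), and with all kept cells (1.86, adjusted p = 0.0871). Between the sexes of the WT, Wfdc3 was lower in XX by 1.49 (adjusted p = 0.00758), a call lost without XX WT replicate 2 (0.0715) or XY WT replicate 1 (0.0690). No group had enough libraries for a check of single libraries that stand apart.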

How the results depend on the processing

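The alternatives were DESeq2, DESeq2's size factors in edgeR, no filter on low counts, all kept cells, doublets kept, the replicate number as a block, and each of the 12 libraries left out in turn. Among alternative values for single genes of the 4, 12 changed sign, 7 newly passed the threshold and 11 no longer did, and for -KTS KO against WT, which has no test, 8 moved by more than the standard error of the fit without a change of sign. The cause of the changes below was not tested. In XX +KTS KO against WT, the number of the 4 genes called was 0 in the fit reported, 1 with DESeq2, without the filter and with the replicate block, and 0 to 1 with a library left out. In XY it was 2, with 3 for DESeq2 and without the filter, 1 for all kept cells and 1 to 3 with a library left out. With DESeq2, the other WAP genes had 1 call in XY +KTS KO and 1 between the WT sexes (2 each in edgeR). Wfdc18, which passed the filter only through XY WT, is 1 of the 2 in each edgeR count. The inhibitors had 2 in XX +KTS KO (1 in edgeR) and 5 between the WT sexes (3), and the proteases 4 in XX +KTS KO (1), 5 in XY +KTS KO (3) and 8 between the WT sexes (5). The edgeR counts of proteases in XY +KTS KO and between the WT sexes include Tmprss2, which passed the filter only through XY WT. With a minimum of 4 markers, Wfdc2 was 11.97 times higher with pre-supporting than with interstitial markers in the -KTS KO (9.28 with 3).

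Signs turned with all kept cells for the XY +KTS KO difference of Wfdc10 (0.066), Spint1 (0.97) and Tmprss2 (0.036) and for the difference of Wfdc2 between the XX and XY effects (-0.070). With a library left out, values that changed sign ran from -1.66 to 0.85 for Wfdc10 in XY +KTS KO. Between the -KTS KO sexes they ran from -4.90 to 0.54 for Wfdc1, from -0.48 to 0.16 for Wfdc2 and from -0.059 to 0.31 for Wfdc10. For the difference between the XX and XY effects of the +KTS KO they ran from -1.31 to 1.20 for Wfdc10 and from -0.10 to 1.89 for Wfdc13. In the fit reported, edgeR called Spint1 lower in XY +KTS KO (-1.76, adjusted p = 0.0187), and it was not called with all kept cells. Tmprss2 was at -2.80 in the fit reported. It passed the filter only through XY WT, so no test is given for it. The other values named here were called in neither fit.

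Counts over all genes moved more. With all kept cells, germ and other cells included, edgeR called 1483 genes in XX -KTS KO (2878 in gonadal somatic cells), 2407 in XY -KTS KO (4132), 466 in XX +KTS KO (889), 1251 between the WT sexes (2476) and 264 for the difference of effects (704). DESeq2 called 1535 in XX +KTS KO and 1550 for the difference of effects, and edgeR without the filter 1358 and 1264. With a library left out, the counts fell in some fits and rose in others. This held in XX -KTS KO, XY -KTS KO, XX +KTS KO, XY +KTS KO, between the WT sexes and for the difference of effects. Between the sexes of the -KTS KO and the +KTS KO, DESeq2 called 20 and 31 genes and edgeR without the filter 14 and 18 (6 each in the fit reported), and up to 134 were called in the +KTS KO without XY +KTS KO replicate 2. The deviations of same-numbered libraries had r from -0.205 to 0.169 over 15 pairs of groups (2 numbers each), and the number was not taken to pair the samples. With 2 libraries per group, this check cannot settle whether some libraries shared a batch. With the replicate number as a block, edgeR called 2715, 3896, 793 and 1997 genes in the 4 mutant comparisons (2878, 4132, 889 and 2211 without it). The block changed the count of the 4 genes called in XX +KTS KO and in no other comparison.

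With 2 libraries per group, differences that varied as much as those of Wfdc10 between the XY WT libraries had wide intervals, and effects within them were not detectable.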

Other observations

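Wfdc2 was far higher in the few cells with mesonephric duct and tubule markers than in any gonadal somatic cell set of the WT or +KTS KO. It was at 1580.4 CPM in 4 such cells of XX +KTS KO replicate 2 and at 517.9 CPM in 63 cells of XY +KTS KO replicate 2, and 1 such cell passed in the other 10 libraries. These cells were not part of the gonadal somatic sums.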
